A study of Homo sapiens with 4 samples.

Results

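10 transcription factor genes of epithelial identity were followed in a breast cancer line treated with MS1943, a small molecule that degrades the histone methyltransferase EZH2. They are the ETS factor genes ELF3, ELF5 and EHF, the grainyhead-like genes GRHL1, GRHL2 and GRHL3, the OVO-like zinc finger genes OVOL1 and OVOL2, and the AP-2 genes TFAP2A and TFAP2C. The 10 genes were taken by symbol from the 56865 GENCODE 29 genes with transcripts in the files, and all 10 were among the 19358 genes with enough reads to be tested. The cells were MDA-MB-468, a triple negative breast cancer line that some labels spell MDA-MD-468, at passage 12 in every library. The labels name no genetic modification in either group. One group received DMSO, the solvent control (n = 2), and the other received 5 µM MS1943 for 3 days (n = 2). Poly(A) RNA was sequenced. The duplicates came from dishes seeded in duplicate, and the labels do not say that these were separate experiments, so the p-values rest on the spread among these 4 libraries alone, which may be technical.

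ETS factors of the ELF group bind a core shared by all ETS proteins, but ELF3, ELF5 and EHF are expressed mainly in epithelia, where they act late in differentiation and, in the case of ELF5, in the milk-secreting lineage of the breast. Grainyhead-like factors open chromatin at genes for cell junctions and the epithelial barrier, and GRHL2 is known for sustaining E-cadherin and opposing ZEB1. OVOL1 and OVOL2 are repressors that hold back mesenchymal regulators, and AP-2 factors are active in ectoderm, skin and breast epithelium. EZH2 is the catalytic subunit of PRC2, the complex that places the repressive mark H3K27me3, often at promoters rich in CG dinucleotides.

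The libraries held 47564377 to 71378893 estimated reads, the shallowest being MS1943 replicate 2. Reads from mitochondrial genes made up 1.65% and 1.78% of the DMSO libraries and 3.52% and 3.11% of the MS1943 libraries, and the part of this shift in the results below was not tested. The 6 epithelial markers examined (EPCAM, CDH1, KRT7, KRT8, KRT18 and KRT19) summed to 6794 and 6833 TPM, Salmon's transcript abundance per unit of length, with DMSO and to 5296 and 5326 TPM with MS1943, so the cells carried the labelled epithelial character in both groups. By the test described next, KRT8, KRT19 and CDH1 fell, and the other 3 did not pass. Among leukocyte markers, CD14 stood at 188 ± 1.49 TPM with DMSO and 99.5 ± 5.08 TPM with MS1943 (SD, n = 2 each), while PTPRC and CD3E had at most 10 reads in any library. The 5 fibroblast markers summed to 10.7 to 12.6 TPM with DMSO and 15.3 to 18.0 TPM with MS1943, nearly all of it COL1A1, and DCN and LUM had at most 3 reads. Both fibroblast markers with enough reads to test, COL1A1 and PDGFRB, rose by that test. PDGFRB had only 2 and 6 reads with DMSO and 20 and 9 with MS1943, and its mean TPM was lower with MS1943 (0.0922 against 0.118). The 3 endothelial markers, PECAM1, VWF and CDH5, all fell, from a summed 1.07 and 0.917 TPM to 0.472 and 0.282 TPM. They had at most 65 reads in any library, and VWF had 13 and 11 reads with DMSO and 3 and 2 with MS1943. None of these markers had 0 reads in all libraries, and their part in the results was not tested. The libraries come from a single cultured line, so these values are transcript levels in that line and not counts of cell types. In such bulk RNA, a change in some of the cells and a change in all of them cannot be told apart.

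MS1943 lowered 7 of the 10 factor genes and raised 0. Those lower were all 3 ETS genes, all 3 grainyhead-like genes and TFAP2C, and those that did not pass the test were OVOL1, OVOL2 and TFAP2A. A gene was called at a Benjamini-Hochberg adjusted p under 0.05 over all 19358 genes, from edgeR's quasi-likelihood fit. The response was broad, with 59.3% of tested genes called, 29.4% lower and 30.0% higher. The 7 of 10 lower is more than that background share. The difference was not tested, because the genes were chosen with results of these libraries known. The background was also not matched for level, and in log2 CPM the factors ranged from ELF5, above 26.2% of tested genes, to ELF3, above 97.8%. At an unadjusted p under 0.05 the count was also 7 lower and 0 higher, and the alternatives, DESeq2 and limma among them, gave 6 to 8 lower and 0 higher. The median log2 fold change of the 10 genes was -0.36, beside -0.01 over all tested genes. On the CPM scale (reads per gene relative to the TMM-adjusted library size), both MS1943 libraries lay below both DMSO libraries for 8 of the 10 genes, above them for OVOL1, and the groups overlapped for OVOL2. Among all tested genes, the groups were apart in this way for 78.3%, with 39.9% lower and 38.4% higher.

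**Figure D1:**
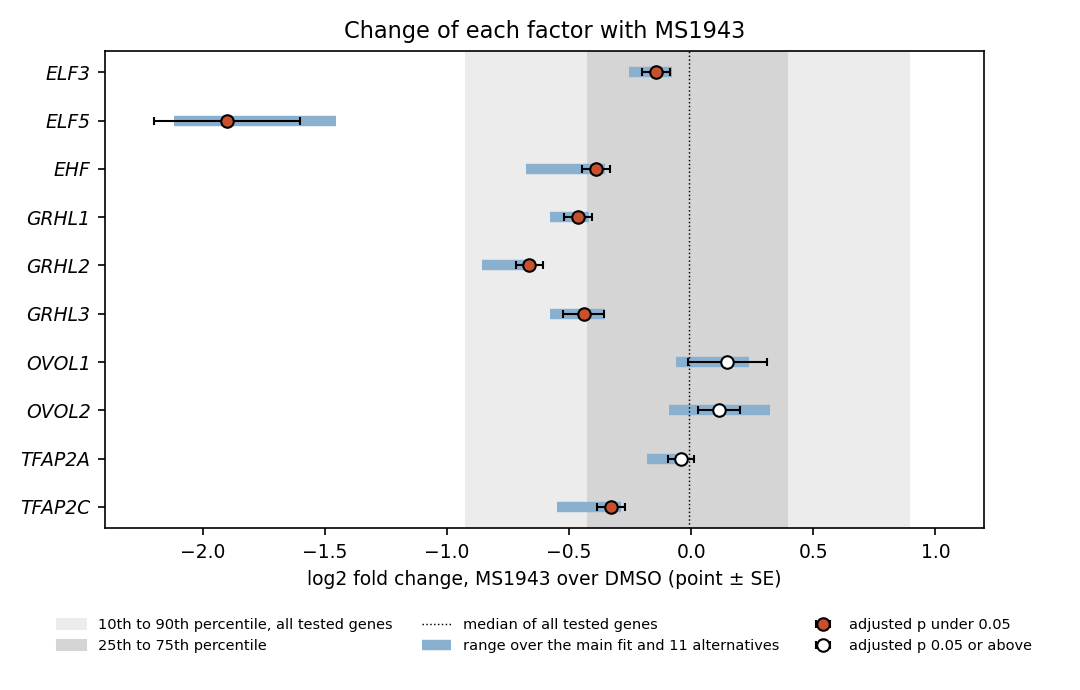
Log2 fold change of each factor gene, MS1943 over DMSO, as a point with its SE from edgeR (n = 2 and 2). Blue bars span the values of the main fit and 11 alternatives, grey bands span the 10th to 90th and 25th to 75th percentiles of all tested genes, and only ELF5 lies outside the wider band.

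In TPM, which corrects for transcript length and allows genes to be compared, the factors differed widely in level. ELF3 was the most abundant at 375 ± 15.1 TPM with DMSO (SD, n = 2), followed by EHF at 212 ± 5.98, TFAP2A at 78.0 ± 0.011 and TFAP2C at 66.2 ± 5.23. GRHL1 stood at 59.0 ± 2.80 TPM, GRHL2 at 30.9 ± 2.17, OVOL2 at 15.7 ± 0.316 and GRHL3 at 10.3 ± 0.559. OVOL1 and ELF5 were scarce, at 1.21 ± 0.050 and 0.881 ± 0.164 TPM. The order was the same with MS1943, from ELF3 at 330 ± 9.45 TPM down to ELF5 at 0.255 ± 0.009. Neighbours in this order had separate ranges within each group, although the gap was small between TFAP2C and GRHL1 with DMSO (62.5 against 61.0 TPM at the closest) and between GRHL2 and OVOL2 with MS1943 (16.6 against 15.4 TPM). These sums include short transcripts, which weigh more in TPM than in reads. With DMSO, TFAP2C-202 (482 bases) gave 33.9% and 43.8% of TFAP2C TPM from 4.27% and 6.59% of its reads. By the transcript with most reads, TFAP2C-201 (41.3 and 39.3 TPM) and GRHL1-201 (39.7 and 38.0 TPM) overlapped with DMSO. The order of this pair thus depends on the transcripts counted. As a family, the grainyhead-like genes summed to 96.3 and 104 TPM with DMSO and 64.7 and 62.0 TPM with MS1943. The OVO-like pair stayed near its starting level, at 17.1 and 16.8 TPM against 15.3 and 16.6 TPM.

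**Figure D2:**
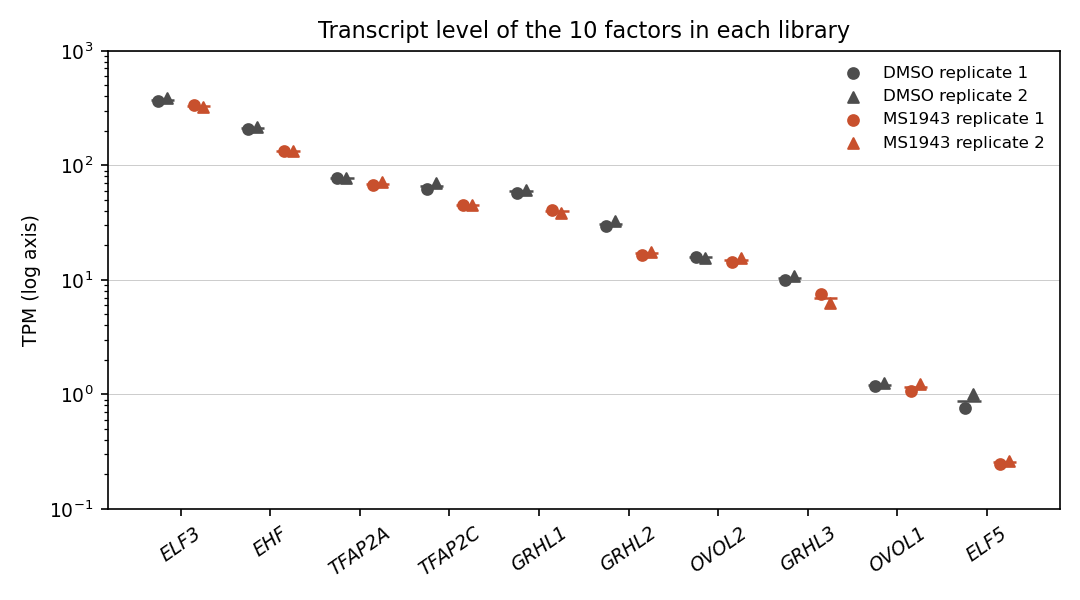
Transcript level in TPM on a log axis for the 10 genes, with 1 point per library and a bar at each group mean (n = 2). ELF3 and EHF sit above 100 TPM in every library, OVOL1 and ELF5 lie near or under 1 TPM, and the order of the genes is the same in both groups.

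Among the ETS factors, ELF5 had the largest fold change of the 10 genes, at a very low level. ELF5 (ENSG00000135374, chr11:34478793-34513805, minus strand, hg38) drives the alveolar, milk-secreting fate of mammary progenitors. It had 68 and 108 estimated reads with DMSO and 21 and 16 with MS1943, or 1.03 and 1.44 CPM against 0.316 and 0.350 CPM. The groups did not overlap, and the log2 fold change was -1.90 ± 0.30 (SE), adjusted p = 1.82e-05, a level 3.73-fold higher with DMSO. Only 1.90% of tested genes had a lower log2 fold change.

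EHF (ENSG00000135373, chr11:34621093-34661057, plus strand), an ETS factor of differentiating glandular and surface epithelia, lies 107287 bases from ELF5 on the same chromosome. Its 291 and 284 CPM with DMSO became 227 and 212 CPM with MS1943. The groups were apart, and EHF fell by 0.39 ± 0.06 on the log2 scale, adjusted p = 8.1e-06. On TPM, which also weighs which transcripts were used, the fall was larger, with a log2 fold change of -0.68 by limma, and with transcript length offsets it was -0.57. The median of all tested genes was -0.12 on that TPM scale and -0.02 with transcript length offsets.

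ELF3 (ENSG00000163435, chr1:202007945-202017188, plus strand), which takes part in terminal differentiation of epithelia, was the most abundant factor and the one that fell least among those called. It measured 363 and 353 CPM with DMSO and 331 and 317 CPM with MS1943. The ranges were separate and the fitted level fell by 9.46%. The log2 fold change was -0.14 ± 0.06, adjusted p = 0.0368. The call was lost without DMSO replicate 1 (adjusted p = 0.0515), without MS1943 replicate 2 (adjusted p = 0.133), with DESeq2 size factors in edgeR (adjusted p = 0.0583) and with transcript length offsets, where the value was -0.08 (adjusted p = 0.266). It was -0.26 when libraries were scaled by total reads alone. The ratio of ELF3 to EHF in TPM went from 1.75 and 1.78 with DMSO to 2.54 and 2.44 with MS1943.

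All 3 grainyhead-like genes fell, under the main fit and in each of the 11 alternatives. GRHL2 (ENSG00000083307, chr8:101492432-101669726, plus strand), the family member most tied to E-cadherin and junction genes, had 94.4 and 95.6 CPM with DMSO and 61.4 and 58.5 CPM with MS1943. The libraries of each group nearly coincided and the groups were far apart, with a log2 fold change of -0.66 ± 0.05, adjusted p = 3.84e-09. The fitted level fell by 36.9%. GRHL2 had the smallest adjusted p of the 10 genes, yet 15.8% of all tested genes had a lower log2 fold change. GRHL1 (ENSG00000134317, chr2:9951693-10002277, plus strand), which regulates desmosomal genes in skin, went from 107 and 100 CPM to 74.7 and 75.6 CPM. Both MS1943 values lay well below both DMSO values, and GRHL1 fell by 0.46 ± 0.06 on the log2 scale, adjusted p = 6.47e-07. GRHL3 (ENSG00000158055, chr1:24319322-24364482, plus strand), required for the skin barrier and for neural tube closure, went from 16.7 and 17.5 CPM to 13.5 and 11.6 CPM. Its groups were also apart, with a log2 fold change of -0.44 ± 0.08, adjusted p = 0.000148. The ratio of GRHL1 to GRHL2 in TPM was 1.94 and 1.88 with DMSO and 2.45 and 2.20 with MS1943.

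The OVO-like genes did not pass the test in either direction. OVOL2 (ENSG00000125850, chr20:17956979-18059188, minus strand), a repressor of ZEB1, had 12.1 and 12.9 CPM with DMSO and 12.7 and 14.5 CPM with MS1943. These ranges overlapped, and the log2 fold change was 0.12 ± 0.09 with a 95% interval of -0.07 to 0.30, adjusted p = 0.264. OVOL1 (ENSG00000172818, chr11:65787022-65797219, plus strand), which acts where epidermal and other epithelial cells leave the cell cycle, had 145 and 174 estimated reads with DMSO and 156 and 123 with MS1943. Scaled for depth these were 2.20 and 2.32 CPM against 2.35 and 2.69 CPM, so MS1943 was higher in both libraries by little, with a log2 fold change of 0.15 ± 0.16 and a 95% interval of -0.19 to 0.49, adjusted p = 0.459. On the log2(TPM + 0.1) scale both signs turned, to -0.06 for OVOL1 and -0.09 for OVOL2. The median of all tested genes was itself -0.12 on that scale, beside -0.01 in the main fit, and both genes lay above it. No direction can be given for either gene. The intervals exclude a fall as large as that of GRHL2 for both genes.

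The AP-2 pair differed in its calls. TFAP2C (ENSG00000087510, chr20:56629302-56639283, plus strand), which maintains luminal breast gene expression, went from 81.7 and 76.9 CPM with DMSO to 64.3 and 61.9 CPM with MS1943. The groups were apart and TFAP2C fell by 0.33 ± 0.06 on the log2 scale, adjusted p = 5.11e-05, or -0.55 on TPM by limma. TFAP2A (ENSG00000137203, chr6:10393186-10419659, minus strand), a regulator of ectoderm and neural crest, had 85.1 and 87.1 CPM with DMSO and 83.5 and 84.0 CPM with MS1943. Its MS1943 values lay just below the DMSO values, with a log2 fold change of -0.04 ± 0.05 and a 95% interval of -0.15 to 0.07, adjusted p = 0.543. It was called lower when scaled by total reads alone (-0.15, adjusted p = 0.0155) and on TPM by limma (-0.18, adjusted p = 0.0278). The median gene moved to -0.12 under both of those scalings, and the share of all calls that were higher went from 50.5% to 39.8% and 39.2%. TFAP2A exceeded TFAP2C by 1.25 and 1.12 times in TPM with DMSO and by 1.48 and 1.57 times with MS1943, separate ranges whose difference was not tested. The short TFAP2C-202 held 33.1% to 43.8% of the TFAP2C TPM in these ratios.

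Promoter windows from RefSeq (GRCh38.p14) are the 250 bases before an annotated start, with any exon of the gene left out. They were matched for 6 of the 10 genes, all but GRHL2, OVOL1, OVOL2 and TFAP2C. For ELF3 all 250 bases were left out, so no sequence remained. The 4 shown include those of GRHL1 and GRHL3, which both fell but differ widely in base composition. The others are of a minor EHF start whose reads dropped and of the first TFAP2A start, which held 24.2% to 31.6% of TFAP2A reads. TFAP2A was not called. Capitals mark CG dinucleotides, and each sequence runs 5′ to 3′ on the strand of its gene. The windows are chr2:9951443-9951692 (plus strand) for GRHL1, chr1:24319107-24319321 (plus strand) for GRHL3, chr11:34624007-34624256 (plus strand) for EHF and chr6:10419660-10419909 (minus strand) for TFAP2A.
GRHL1: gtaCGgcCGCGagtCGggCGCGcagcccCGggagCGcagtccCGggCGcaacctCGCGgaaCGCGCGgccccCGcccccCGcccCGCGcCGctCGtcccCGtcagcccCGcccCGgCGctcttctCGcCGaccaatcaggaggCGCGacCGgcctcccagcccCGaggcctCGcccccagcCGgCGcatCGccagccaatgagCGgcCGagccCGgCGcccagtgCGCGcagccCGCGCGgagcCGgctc
GRHL3: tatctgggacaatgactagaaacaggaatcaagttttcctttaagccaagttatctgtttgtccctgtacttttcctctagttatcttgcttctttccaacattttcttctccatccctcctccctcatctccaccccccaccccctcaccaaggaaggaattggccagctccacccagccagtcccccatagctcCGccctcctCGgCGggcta
EHF: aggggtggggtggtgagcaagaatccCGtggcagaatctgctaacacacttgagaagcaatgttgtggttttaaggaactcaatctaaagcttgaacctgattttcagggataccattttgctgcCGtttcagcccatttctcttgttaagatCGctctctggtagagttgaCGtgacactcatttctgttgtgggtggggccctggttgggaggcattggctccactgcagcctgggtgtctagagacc
TFAP2A: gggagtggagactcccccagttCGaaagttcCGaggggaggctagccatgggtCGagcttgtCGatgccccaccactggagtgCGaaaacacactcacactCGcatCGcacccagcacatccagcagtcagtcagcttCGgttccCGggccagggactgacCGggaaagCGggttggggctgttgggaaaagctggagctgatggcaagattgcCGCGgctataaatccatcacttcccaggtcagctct

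The GRHL1 window held 45 CG dinucleotides and was 81.6% G or C, with more CG than 99.4% of the 35116 RefSeq promoter windows. GRHL3 held 3 in its 215 bases, EHF held 4 and TFAP2A held 13, beside a median of 11 over all windows. The printed windows of GRHL1 and GRHL3, with log2 fold changes of -0.46 and -0.44, differed widely in CG content. The window of a second GRHL3 start held 10 CG dinucleotides. Any link between CG content and the changes was not tested. The windows were also searched on both strands for the letters GCCNNNGGC (AP-2, present in 19.8% of all windows), AACNNGTT (grainyhead, 3.00%), CCGGAAG (ETS, 8.52%) and CCGTTA (OVO, 2.45%). The 4 printed windows held none of these, and the window of that second GRHL3 start, at chr1:24322790-24323039, held 1 match to the AP-2 letters, overlapping no other motif searched. These matches describe letters only.

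Most factors used the same annotated start in both groups, as far as Salmon's division of reads among overlapping transcripts can tell, an assignment whose error the files do not hold. The first EHF start carried 93.3% and 92.5% of EHF reads with DMSO and 95.0% and 93.7% with MS1943. A second EHF start, 3167 bases downstream and next to the window printed above, went from 48.2 and 51.4 TPM to 19.3 and 26.3 TPM, while the first start went from 134 and 136 TPM to 103 and 94.8 TPM. Short EHF transcripts starting 21084 and 21292 bases into the gene dropped further in level, EHF-206 from 8.04 and 9.36 TPM to 1.36 and 1.34 TPM and EHF-211 from 9.38 and 10.7 TPM to 0.642 and 1.78 TPM. Others went up, such as EHF-212, 1110 bases in, from 2.44 and 2.71 TPM to 3.66 and 3.67 TPM, and EHF-204, at the first start, from 3.62 and 5.48 TPM to 8.06 and 6.54 TPM. These transcripts carry few reads but are short (502 to 1501 bases), so each read weighs more in TPM than in CPM. The EHF starts and transcripts beyond the first start were chosen after their values were seen.

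A downstream GRHL2 start, 326 bases from the first, carried 5.73% and 7.52% of its reads with DMSO and 3.24% and 3.11% with MS1943. Both MS1943 libraries were lower, while the first start held over 92% of the reads throughout. GRHL1 kept 98.0% to 98.4% of its reads at its first start, and transcripts annotated for nonsense-mediated decay held 8.62% and 9.35% of its reads with DMSO and 9.74% and 9.30% with MS1943. TFAP2A was spread over several starts, the largest 4397 bases downstream of the first with 44.0% and 39.1% of reads against 40.2% and 40.4%, where the groups overlapped. The minor TFAP2A starts given next were chosen after their values were seen, and none had more than 108 reads in any library. How often starts separate in this way over all genes was not counted. Those 7613 and 15065 bases downstream were lower with MS1943. The former held 0.997% and 0.999% of reads against 0.569% and 0.581%, and the latter 1.42% and 1.09% against 0.689% and 0.509%. That 8641 bases downstream was also lower (0.943% and 1.65% against 0.436% and 0.670%). That 2452 bases downstream was higher with MS1943, at 0.372% and 0.557% against 0.578% and 0.836%. The first TFAP2A start held 24.2% and 25.5% of reads with DMSO. With MS1943 it held 31.6% and 25.6%, so only replicate 1 stood clearly above DMSO. For OVOL2, the transcript annotated as coding took 50.3% and 87.8% of the reads in the DMSO duplicates and 74.8% and 86.1% with MS1943. The duplicates themselves disagree there, so its transcripts could not be compared.

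**Figure D3:**
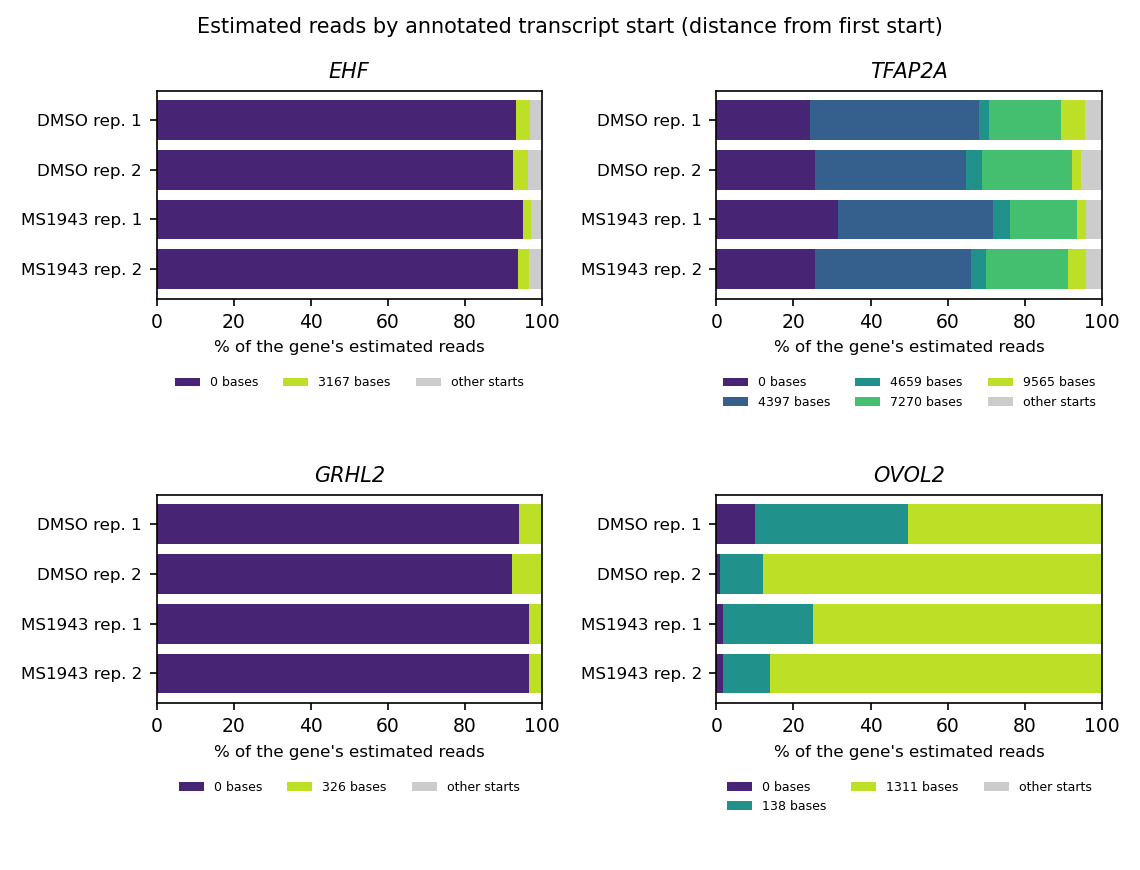
Share of each gene's estimated reads assigned to annotated transcript starts, in percent, for EHF, TFAP2A, GRHL2 and OVOL2 in each of the 4 libraries. Colours mark the distance in bases from the first start, and only OVOL2 shows bars that differ widely between duplicates (50.3% and 87.8% at 1311 bases with DMSO).

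Genes that overlap the factors on the chromosome can bear on these values. The library kit does not mark strand, so reads from a gene and its antisense partner cannot be told apart where they share sequence. ENSG00000249007, SNX5 and SNORD17 lie on the same strand as the factor they overlap, so strand is not the reason for them. GENCODE places 14 genes across 6 of the 10 factors, of which 8 were tested, 4 fell, 2 rose and 2 did not pass, and the other 6 had at most 9 reads in any library. The genes given here were chosen after their values were seen. ELF3-AS1, an antisense RNA across the first annotated start of ELF3, went from 417 and 510 reads to 207 and 127 reads, with a log2 fold change of -1.15 ± 0.13, adjusted p = 1.93e-07. That start held 1.13% to 1.32% of ELF3 reads. ELF3-AS1 does not reach the start 2572 bases downstream, which held 82.7% to 86.7%. An antisense RNA that overlaps the first bases of GRHL2 (ENSG00000254024) went from 58 and 51 reads to 7 and 7, -2.61 ± 0.40, adjusted p = 1.57e-05. Both changes were larger in size than that of the factor gene overlapped, a difference that was not tested, and both RNAs had far fewer reads than that gene. TFAP2A-AS1 also fell, by 0.80 ± 0.25 on the log2 scale (adjusted p = 0.0106). The coding gene SNX5, which overlaps OVOL2, fell by 0.40 ± 0.06 (adjusted p = 7.94e-06), while STPG1 at GRHL3 rose by 0.58 ± 0.07 (adjusted p = 4.49e-07) and MGME1 at OVOL2 rose by 0.18 ± 0.06 (adjusted p = 0.0170). ENSG00000249007 at ELF3 and the small nucleolar RNA SNORD17 at OVOL2 were not called, at 0.07 ± 0.26 and -0.38 ± 0.27.

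The genes whose pattern over the 4 libraries came nearest to 1 factor of each family were found by Euclidean distance between centred log2 CPM values, among 11138 coding genes. For EHF these were RGL2 and PLEKHG4, at distances of 0.0122 and 0.0123. For GRHL2 they were CSKMT and ZNF595, at 0.0180 and 0.0230. TFAP2C had IFT46 and CANT1, at 0.0177 and 0.0191, and OVOL2 had ESYT3 and TYSND1, at 0.0179 and 0.0252. With only 4 values per gene, close neighbours are common, and 78 (OVOL2) to 615 (TFAP2C) genes lay within a distance of 0.1.

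Relatives of the factors that were not among the 10 moved in both directions. SPDEF, an epithelial ETS factor of secretory and luminal cells, went from 172 and 156 CPM with DMSO to 53.9 and 52.0 CPM with MS1943, a log2 fold change of -1.63 ± 0.06, adjusted p = 3.88e-14. The groups were far apart. ELF2, a widely expressed ETS gene, fell by 0.41 ± 0.06 (adjusted p = 1.56e-05), and ELF1 rose by 0.46 ± 0.06 (adjusted p = 1.71e-06), as did ELF4 by 0.33 ± 0.06, so this list had 2 higher and 2 lower of 4. Of the 3 CP2 genes, the relatives of grainyhead, 2 fell and 1 did not pass. TFCP2L1, a regulator of ductal epithelia, fell by 1.003 ± 0.06 on the log2 scale (adjusted p = 6.15e-11), from 249 and 257 CPM to 134 and 118 CPM. UBP1 fell by 0.55 ± 0.06, and TFCP2, at -0.11 ± 0.06 (adjusted p = 0.126), passed the test as lower with scaling by total reads alone (-0.22). Of the remaining OVO-like and AP-2 genes, TFAP2E fell by 0.93 ± 0.12 (adjusted p = 2.94e-06), OVOL3 did not pass at 0.47 ± 0.32, TFAP2B had at most 10 reads and TFAP2D had 0 in every library.

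Of 5 AP-2 cofactors and inhibitors, 4 were called lower and 1 higher, beside 29.4% lower and 30.0% higher among all tested genes. Their median log2 fold change was -0.87, beside -0.01 over all tested genes. The list holds both coactivators and repressors of AP-2 proteins, so a shared direction has no single meaning for AP-2 activity. CITED4, a coactivator of AP-2 proteins, went from 80.7 and 92.4 CPM to 16.8 and 19.3 CPM, a change of -2.27 ± 0.08 (adjusted p = 7.69e-15). CITED2, which links AP-2 proteins to CBP and p300, fell by 0.87 ± 0.06 (adjusted p = 1.44e-10). KCTD15, a repressor of AP-2 activity, went the other way, from 12.1 and 12.9 CPM to 34.6 and 33.9 CPM, a change of 1.45 ± 0.07 (adjusted p = 1.1e-12). The groups were apart for all 3. Its relative KCTD1 fell by 0.28 ± 0.06, and CITED1, with at most 23 reads, was at -1.58 ± 0.51 (adjusted p = 0.0119), both named after their values were seen. The CITED1 call was lost under DESeq2 (adjusted p = 0.147), without DMSO replicate 1 (0.0601) and without MS1943 replicate 2 (0.128).

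Genes linked to grainyhead factors moved in both directions while GRHL1, GRHL2 and GRHL3 fell. Of 17, 16 were tested, 7 fell, 5 rose and 4 did not pass, with a median log2 fold change of -0.02. ARHGEF19, a RhoA exchange factor known as a GRHL3 target, fell by 1.22 ± 0.06 (adjusted p = 1.89e-12), from 57.9 and 56.3 CPM to 24.4 and 24.8 CPM. TGM1, the transglutaminase that crosslinks the cornified envelope, fell by 1.79 ± 0.11 (adjusted p = 5.99e-11), and the receptor gene ERBB3 fell by 0.87 ± 0.06 (adjusted p = 1.97e-10). The 5 that rose, named after their values were seen, were the desmosomal gene DSP (0.49 ± 0.06), the membrane protease PRSS8 (0.41 ± 0.06), the splicing regulator ESRP1 (0.37 ± 0.06), the protease inhibitor SPINT1 (0.24 ± 0.05) and the tight junction gene CLDN4 (0.21 ± 0.06, a call lost with total reads alone at 0.10, adjusted p = 0.0690). Likewise, the 4 not called were CLDN7 at 0.13 ± 0.06 (called higher without DMSO replicate 1, 0.18, and with protein-coding transcripts only, 0.13), RAB25 at -0.03 ± 0.05 (called lower with total reads alone, -0.14), EPCAM at -0.01 ± 0.06 and SPINT2 at 0.07 ± 0.06. CDH1, which encodes E-cadherin and was also named after its values were seen, fell by 0.24 ± 0.05. DSG1 had at most 4 reads and was not tested.

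**Figure D4:**
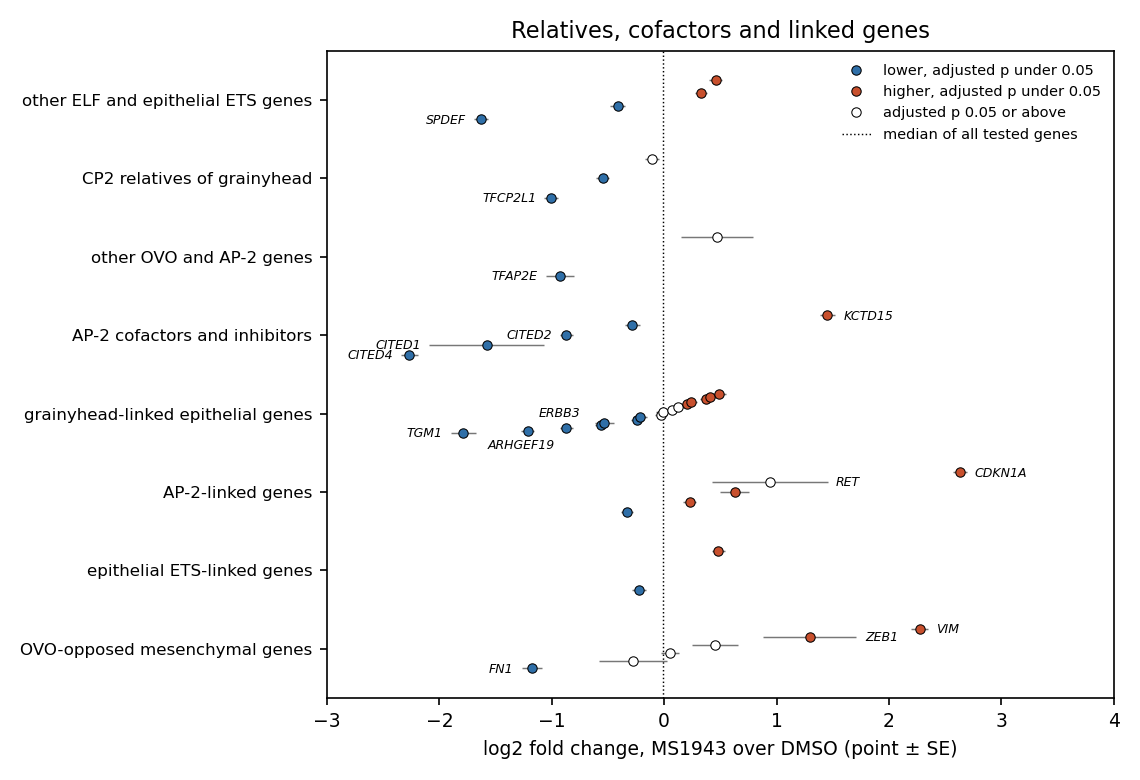
Log2 fold change with SE for tested relatives, cofactors and linked genes, 1 point per gene, by list. Points lie on both sides of the median of all genes (dotted line) in most lists, AP-2 cofactors are mostly lower, and SPRR1B is left out because its DMSO libraries held 1 read in all.

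For genes linked to AP-2 factors, 3 of 5 rose, 1 fell and 1 did not pass. CDKN1A, the cell cycle inhibitor p21, rose from 17.5 and 17.0 CPM to 110 and 103 CPM, a change of 2.63 ± 0.06 (adjusted p = 5.13e-17). ERBB2, whose promoter carries known AP-2 sites, fell by 0.33 ± 0.06 (adjusted p = 3.79e-05), a call lost when only protein-coding transcripts were counted (-0.09, adjusted p = 0.297). ESR1, the estrogen receptor gene, had 209 and 244 reads with DMSO and 321 and 234 with MS1943, and rose by 0.63 ± 0.13 (adjusted p = 0.000376), a call lost with transcript length offsets (0.33, adjusted p = 0.139). KRT14, a basal keratin named after its values were seen, rose by 0.23 ± 0.06 (adjusted p = 0.00196), a call lost with transcript length offsets (-0.0036, adjusted p = 0.965), and its TPM was lower with MS1943 (234 and 221 against 245 and 247). RET, with at most 14 reads, did not pass at 0.94 ± 0.51.

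Only 3 of the 6 genes linked to epithelial ETS factors were tested. LCN2, an iron-carrier binding protein of epithelia, rose by 0.48 ± 0.06 (adjusted p = 4.06e-07), and the receptor gene TGFBR2, a known ELF3 target, fell by 0.22 ± 0.06 (adjusted p = 0.00375). SPRR1B, a cornified envelope gene, had 0 and 1 reads with DMSO and 39 and 21 with MS1943, and its fold depends on the prior count of the fit. SPRR2A had at most 10 reads, and NOS2 and CSN2 had 0 reads in every library.

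Mesenchymal genes that OVO-like factors oppose did not share a direction, with 2 higher, 1 lower and 3 not called of the 6 tested from a list of 9. VIM, the intermediate filament gene of mesenchymal cells, rose from 21.7 and 23.4 CPM to 118 and 99.7 CPM, a change of 2.27 ± 0.07 (adjusted p = 5.09e-15). FN1, the fibronectin gene, fell by 1.18 ± 0.09 (adjusted p = 8.42e-10). ZEB1, the zinc finger repressor that GRHL2 and OVOL2 oppose, had 16 and 11 reads with DMSO and 35 and 19 with MS1943, a change of 1.30 ± 0.42 (adjusted p = 0.0115). That call was lost under DESeq2 (adjusted p = 0.140), with transcript length offsets (0.215), without DMSO replicate 2 (0.114) and without MS1943 replicate 1 (0.163). The genes not called, named after their values were seen, were SNAI1 at 0.45 ± 0.21 (called higher without DMSO replicate 1, 0.59), TWIST2 at 0.05 ± 0.08 and ZEB2 at -0.28 ± 0.30, while SNAI2, TWIST1 and CDH2 had at most 3 reads. Over all 8 lists of relatives, cofactors and linked genes, 15 of 44 tested genes rose, 19 fell and 10 did not pass, beside 30.0% higher and 29.4% lower among all tested genes, and the median log2 fold change was -0.02.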

How the data were processed

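Poly(A) RNA-seq of 4 MDA-MB-468 libraries was analysed, grouped by the treatment label. Per the labels' protocols, the TruSeq RNA Library Prep Kit v2 was used, which does not mark strand. The submitters' processing notes name Salmon 0.9.1, R 3.4.3, DESeq2 and build hg38. Salmon's annotation release is not given in the sources used here. Per the file headers, the deposited estimated counts are Salmon's reads per transcript, and the deposited TPM values are its length-scaled abundances.

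Of 197653 transcripts per file, 193505 matched GENCODE 29. The 4148 unmatched held 0.482% to 0.496% of reads and were left out. Estimated counts and TPM were summed per gene, and counts were rounded to whole numbers. Genes were tested in R 4.3.3 with edgeR 4.0.16 (glmQLFit and glmQLFTest, TMM, filterByExpr, treatment alone), and p-values of 19358 genes were adjusted by Benjamini-Hochberg. The SE is the log2 fold change divided by the square root of F, and CPM uses TMM-scaled library sizes. A floor of 3 reads stood for 0.0400 to 0.0656 CPM and covers counting error only. In both groups the duplicates differed beyond counting noise, with a chi-square of 6.33 (DMSO) and 5.86 (MS1943) per degree of freedom. The fit was tested on simulated data.

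The members and gene lists were chosen with earlier results of these data known. The text names all 10 members, up to 3 tested genes of each list by smallest adjusted p, and 2 nearest coding genes with a mean log2 CPM of at least 2 for 1 member per family. Transcript starts within 100 bases of each other were grouped. The alternatives were 3 other scalings or offsets, DESeq2 1.42.0, limma 3.58.1 on log2(TPM + 0.1), no low-count filter, protein-coding transcripts only, and leaving out each library in turn. 1 leukocyte marker is not reported here.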

Additional observations from a re-analysis of the deposited data

How the results depend on the processing

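The factors called lower were also called lower in all 11 alternatives, except ELF3, which was called in 7. The log2 fold change of ELF3 was -0.13 with DESeq2 size factors in edgeR and -0.078 with transcript length offsets, and ranged from -0.19 to -0.13 when each library was left out in turn. The sign turned on the log2(TPM + 0.1) scale for OVOL1 (-0.061) and OVOL2 (-0.091), neither of them called in any fit. The median of all tested genes was -0.12 on that scale. TFAP2A was called lower at -0.15 with total reads alone and at -0.18 on log2(TPM + 0.1). Among linked genes, KRT14 turned to -0.0036 with transcript length offsets. The sign also turned for 3 genes not called in these fits. EPCAM turned to 0.00084 with DESeq2 size factors in edgeR, 0.013 with protein-coding transcripts only, and ranged from -0.100 to 0.074 with each library left out in turn. SPINT2 turned to -0.043 with total reads alone, and TWIST2 turned to -0.060 with total reads alone and ranged from -0.047 to 0.134 with each library left out in turn. The cause of these changes was not tested. Of the 110 alternative values for the factors, 102 kept their direction and side of the threshold.

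No paired analysis was possible because the labels carry no replicate numbers. With 2 libraries a group, the fit has 2 residual degrees of freedom, and leaving out a library leaves 1 library assumed to vary like the other group. Depth limits ELF5 and OVOL1, whose reads ranged from 16 to 108 and from 123 to 174, and transcripts with few reads.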
